A study of Mus musculus with 16 samples.

Results

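The immediate early genes examined here were Fos, Fosb, Jun, Junb, Egr1, Egr3, Arc, Nr4a1, Npas4 and Ier2. The 10 were taken by their symbols, as a class named with earlier results of these data known. All 10 were present among the 26625 genes of the table and all 10 were among the 18826 genes with enough counts to be tested. Full-length cDNA from the medial prefrontal cortex (mPFC) of 16 male C57BL/6 mice, 8 to 10 weeks old, was sequenced on the Nanopore platform. The Ctrl + Saline (n = 3) and Ctrl + Morphine (n = 4) groups carried a virus with a negative control shRNA. The 5 Kdm7a-shRNA + Saline mice and the 4 mice of the Kdm7a-shRNA + Morphine group carried pAAV-U6-shRNA(Kdm7a)-CMV-EGFP-WPRE, whose U6 and CMV promoters are not restricted to a cell type, in the mPFC of both hemispheres. KDM7A is a demethylase of repressive histone marks. Over 10 days of place conditioning, the morphine groups received 5 injections of morphine at 10 mg/kg alternating with saline, and the saline groups received saline. The mPFC was dissected 7 days into withdrawal (day 17), directly after a place preference test that mice of all groups had undergone.

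Immediate early genes are transcribed within minutes of a stimulus, without new protein synthesis, when calcium, cAMP or MAP kinase signals act on factors already bound to their promoters, such as CREB and SRF. In the cortex their RNA is short-lived and is used as a mark of neurons that were recently active. Some members are also induced by growth factors, stress and inflammation in cells that are not neurons. Fos, Fosb, Jun and Junb encode subunits of the AP-1 transcription factor, Egr1 and Egr3 zinc finger factors, Nr4a1 an orphan nuclear receptor and Npas4 a calcium-dependent factor of neurons. Arc encodes a protein that acts at synapses on AMPA receptor traffic, and Ier2 a nuclear protein of the early growth response. Counts are per gene, so that the full-length and truncated products of Fosb (FosB and ΔFosB) are not separated here.

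On GRCm38, with GENCODE vM21 gene limits, Fos spans chr12:85473890-85477273 (+), Fosb chr7:19302696-19310051 (-), Jun chr4:95049034-95052222 (-) and Junb chr8:84974484-84978718 (-). Nr4a1 spans chr15:101254269-101274795 (+), Arc chr15:74669083-74672570 (-), Npas4 chr19:4984355-4990316 (-), Ier2 chr8:84661331-84662852 (-) and Egr3 chr14:70077203-70082614 (+). These 9 are annotated as protein-coding genes.

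Promoter sequences from RefSeq (GRCm38.p6) were matched for 6 of the 10 members, namely Fos, Fosb, Junb, Jun, Nr4a1 and Npas4, and the 250 bases before each start were read. The letters TGACG, the core of the cAMP response element to which CREB binds, were searched on both strands. This core occurred in 17.8% of the 32851 promoters of the table. It was found 4 times before Nr4a1, 2 times before Fos, 2 times before Npas4, 1 time before Fosb and 1 time before Junb, and was not found in the Jun window. The Npas4 window lies before an internal start of the annotated gene, with all 250 bases in exons of that gene. The CArG box, to which SRF binds, was found in none of the 6 windows and in 1.47% of all promoters. Bases farther upstream were not searched, so that sites there are not covered. The 4 windows below are those of Fos and Nr4a1, the 2 members that were lower after knockdown in saline mice, and of Junb and Jun, whose pairs with them did not pass when variation between mice was compared. Each is written 5′ to 3′ on the strand of its gene, with the core in capitals as it reads on that strand (CGTCA where it lies on the opposite strand).
Fos, chr12:85473640-85473889 (+): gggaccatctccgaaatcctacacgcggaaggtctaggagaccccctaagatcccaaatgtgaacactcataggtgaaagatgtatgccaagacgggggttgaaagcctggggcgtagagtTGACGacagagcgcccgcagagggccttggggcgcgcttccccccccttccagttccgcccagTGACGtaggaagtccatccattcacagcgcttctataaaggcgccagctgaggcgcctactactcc
Nr4a1, chr15:101266596-101266845 (+): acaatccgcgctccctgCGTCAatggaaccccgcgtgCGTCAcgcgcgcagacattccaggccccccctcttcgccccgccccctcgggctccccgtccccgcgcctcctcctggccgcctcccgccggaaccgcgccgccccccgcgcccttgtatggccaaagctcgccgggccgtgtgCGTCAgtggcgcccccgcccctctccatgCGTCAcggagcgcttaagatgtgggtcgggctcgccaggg
Junb, chr8:84978749-84978998 (-): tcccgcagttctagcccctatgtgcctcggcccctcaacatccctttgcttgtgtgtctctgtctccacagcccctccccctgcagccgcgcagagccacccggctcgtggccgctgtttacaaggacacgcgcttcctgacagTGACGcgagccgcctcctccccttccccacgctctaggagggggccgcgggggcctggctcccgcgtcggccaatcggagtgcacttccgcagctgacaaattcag
Jun, chr4:95052223-95052472 (-): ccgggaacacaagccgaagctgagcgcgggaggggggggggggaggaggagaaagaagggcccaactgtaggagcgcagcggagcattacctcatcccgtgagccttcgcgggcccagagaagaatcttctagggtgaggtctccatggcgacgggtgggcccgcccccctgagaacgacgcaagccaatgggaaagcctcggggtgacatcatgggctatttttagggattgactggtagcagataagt
The Fos window holds cores that begin 129 and 66 bases before the start, and the letters TATAAA 33 bases before it. The Nr4a1 window, which lies before an internal start of the annotated gene, holds them at 233, 213, 69 and 40 bases, and the Junb window at 106 bases. The letters TATAAA were found in 12.4% of all promoters. These matches are descriptions of sequence and not measurements of binding.

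Between 6596991 and 12418112 reads per mouse were counted. Values are given below as normalized CPM, the counts relative to library size after scaling with edgeR's TMM factors. A count of 3 reads, taken as the smallest detectable value, corresponds to 0.258 to 0.46 normalized CPM, and every member exceeded it in every mouse. The members with the fewest reads were Npas4 (13 to 69 counts) and Ier2 (13 to 80 counts), and the one with the most was Egr1 (738 to 1563 counts). Kdm7a, the targeted gene, averaged 9.42 ± 0.353 (SD, n = 3) normalized CPM in the Ctrl + Saline group and 5.55 ± 0.571 (n = 5) in the Kdm7a-shRNA + Saline group (adjusted p = 0.0153). It averaged 7.72 ± 1.13 (n = 4) in the Ctrl + Morphine group and 4.94 ± 1.53 (n = 4) in the Kdm7a-shRNA + Morphine group, where the 2 groups overlapped and the adjusted p was 0.0506. The 4 markers of cortical excitatory neurons Slc17a7, Tbr1, Neurod6 and Camk2a were counted in every mouse, with at least 69 reads each. In bulk tissue, a change in RNA per cell and a change in the number of cells cannot be told apart. Adjusted p-values are from edgeR's quasi-likelihood test over all 18826 genes. To pass, a gene needed an adjusted p below 0.05 together with a 1.5-fold change or more.

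**Figure D1:**
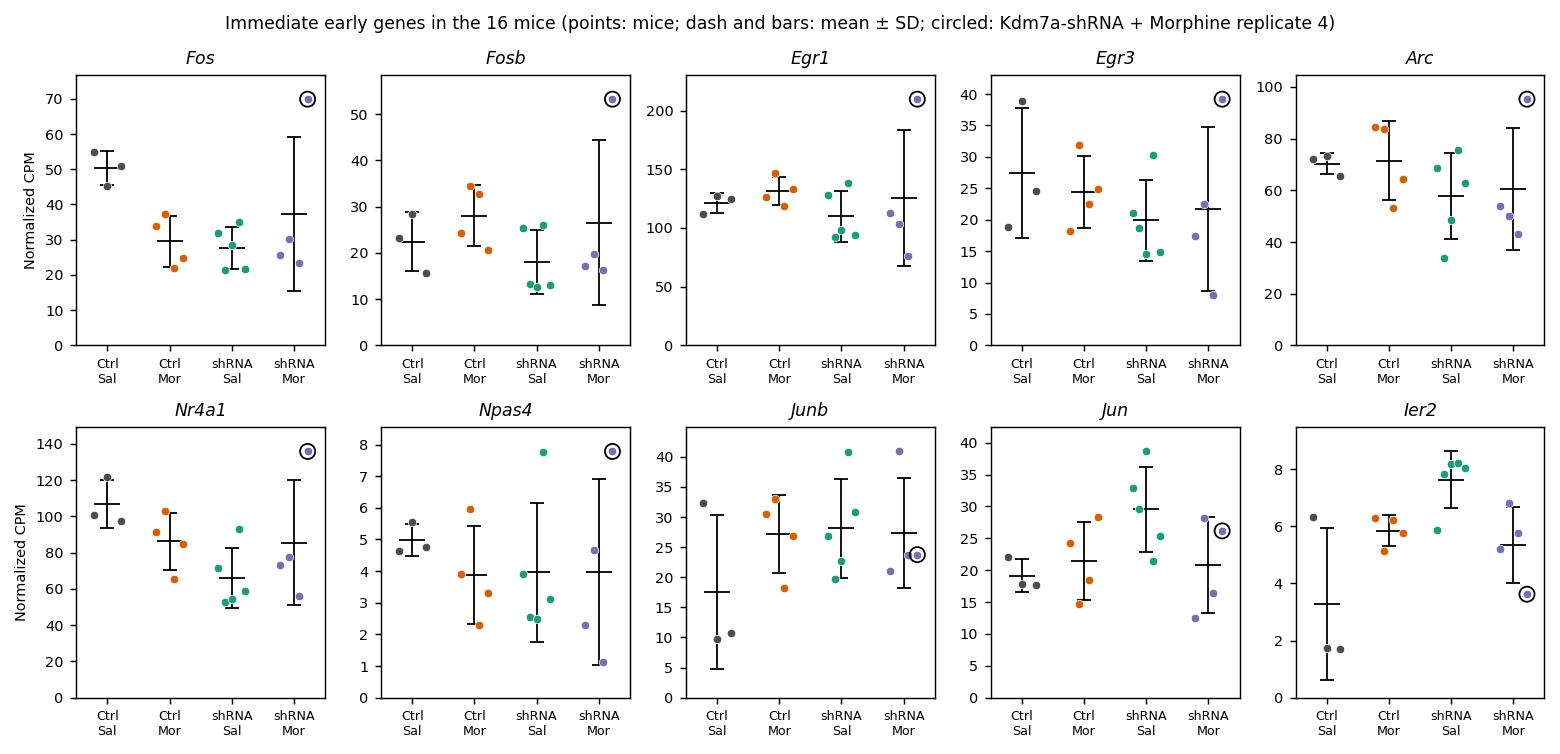
Normalized CPM (linear axis from 0) of the 10 immediate early genes in the 16 mice, by group (Ctrl or Kdm7a-shRNA virus, saline or morphine), with points for mice, a dash for the group mean and bars for the SD. The circled mouse, Kdm7a-shRNA + Morphine replicate 4, is the highest of all 16 for Fos, Fosb, Egr1, Egr3, Arc, Nr4a1 and Npas4.

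The first question was what Kdm7a knockdown did to these genes in mice that had received only saline. Here 3 of the 10 members passed: Fos and Nr4a1 fell and Ier2 rose. Over all tested genes 16.7% passed in this comparison, 9.31% lower and 7.43% higher, so that 2 lower and 1 higher of 10 is near the background. The median log2 fold change of the members was -0.30, beside 0.015 over all tested genes.

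Fos, whose product pairs with Jun proteins in AP-1, was at 54.8, 45.3 and 50.9 normalized CPM in the 3 Ctrl + Saline mice. In the 5 Kdm7a-shRNA + Saline mice it was at 31.8, 21.3, 28.4, 35.0 and 21.8. Every Ctrl + Saline mouse was above every Kdm7a-shRNA + Saline mouse, with group means of 50.3 ± 4.81 and 27.7 ± 6.04. The log2 fold change was -0.86 (95% confidence interval -1.47 to -0.26, adjusted p = 0.0419). Nr4a1, the nuclear receptor, was at 101, 122 and 97.4 normalized CPM in the Ctrl + Saline mice. It was at 71.5, 52.8, 54.1, 92.8 and 59.0 after knockdown. These groups did not overlap either, although Kdm7a-shRNA + Saline replicate 4 at 92.8 came close to the lowest control at 97.4. The log2 fold change of Nr4a1 was -0.69 (-1.19 to -0.20, adjusted p = 0.0456). Fos and Nr4a1 were the 2 members without overlap between these groups, and 23.7% of all tested genes had none.

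Ier2, the early response gene, moved the other way. It was at 6.34, 1.76 and 1.72 normalized CPM in the Ctrl + Saline mice, from 48, 18 and 13 reads. After knockdown it was at 5.86, 7.83, 8.18, 8.21 and 8.04. Ctrl + Saline replicate 1 lay inside the range of the knockdown group, while the other 2 controls lay far below it. The log2 fold change was 1.24 (0.54 to 1.95, adjusted p = 0.0160), and without that replicate it was 2.08. The same mouse stood apart for Junb, another AP-1 subunit, at 32.4 beside 9.76 and 10.7 in the other 2 Ctrl + Saline mice. Junb was at 26.8, 19.7, 22.6, 40.7 and 30.8 after knockdown. Its log2 fold change was 0.68 (-0.06 to 1.42, adjusted p = 0.178) with that control mouse and 1.42 (adjusted p = 0.00724) without it.

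Jun, the partner of Fos that is phosphorylated by JNK, was at 22.1, 17.8 and 17.6 normalized CPM in the Ctrl + Saline mice and at 32.9, 29.6, 38.6, 21.4 and 25.3 after knockdown. Of the 5 knockdown mice, 4 exceeded all controls. The difference was 0.63 on the log2 scale (0.08 to 1.18, adjusted p = 0.0982) and did not pass. The remaining 5 members had log2 fold changes below 0 with intervals that included 0. These were Egr3 at -0.47 (-1.23 to 0.30), Npas4 at -0.33 (-1.32 to 0.65), Fosb at -0.31 (-1.08 to 0.45), Arc at -0.28 (-0.82 to 0.25) and Egr1 at -0.14 (-0.62 to 0.34). The intervals allow a fold change of more than 1.5 for each of these genes.

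These 3 calls depended on single mice. Fos passed in 2 of the 8 fits that left out 1 mouse of either group, Nr4a1 in 1 and Ier2 in 6, while their directions held in all 8. No member passed without Ctrl + Saline replicate 2 or without Ctrl + Saline replicate 3, and the log2 fold change of Ier2 was then 0.92 and 0.93. Ier2 alone passed without Kdm7a-shRNA + Saline replicate 2, 3 or 5. All 3 passed under each of the 9 other planned settings.

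Cell type markers moved with the same comparison. The summed normalized CPM of the 6 microglia markers was 560 to 835 in the Ctrl + Saline mice and 1110 to 3046 in the Kdm7a-shRNA + Saline mice, and 5 of the 6 passed as higher. The sum of the 4 excitatory neuron markers was 999.6 to 1406 and 680 to 1176, and none of the 4 passed. These did not move alike: Neurod6 and Camk2a were at -0.73 and -0.72 on the log2 scale, Tbr1 at -0.15 and Slc17a7 at 0.084. Of 3 inhibitory neuron markers 1 passed as higher and 1 as lower. Of 5 astrocyte markers 2 passed as higher, and of 4 endothelial markers 3. With the excitatory neuron sum as a covariate, which was added once the values were known, the log2 fold changes were -0.44 for Fos (adjusted p = 0.244), -0.27 for Nr4a1 (adjusted p = 0.294) and 0.99 for Ier2 (adjusted p = 0.0683). With the microglia sum they were -0.16 for Fos, 0.039 for Nr4a1 and 0.93 for Ier2, with adjusted p-values of 0.781, 0.924 and 0.173. The microglia sums of the 2 groups did not overlap, so that this covariate and the knockdown cannot be told apart in saline mice.

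**Figure D2:**
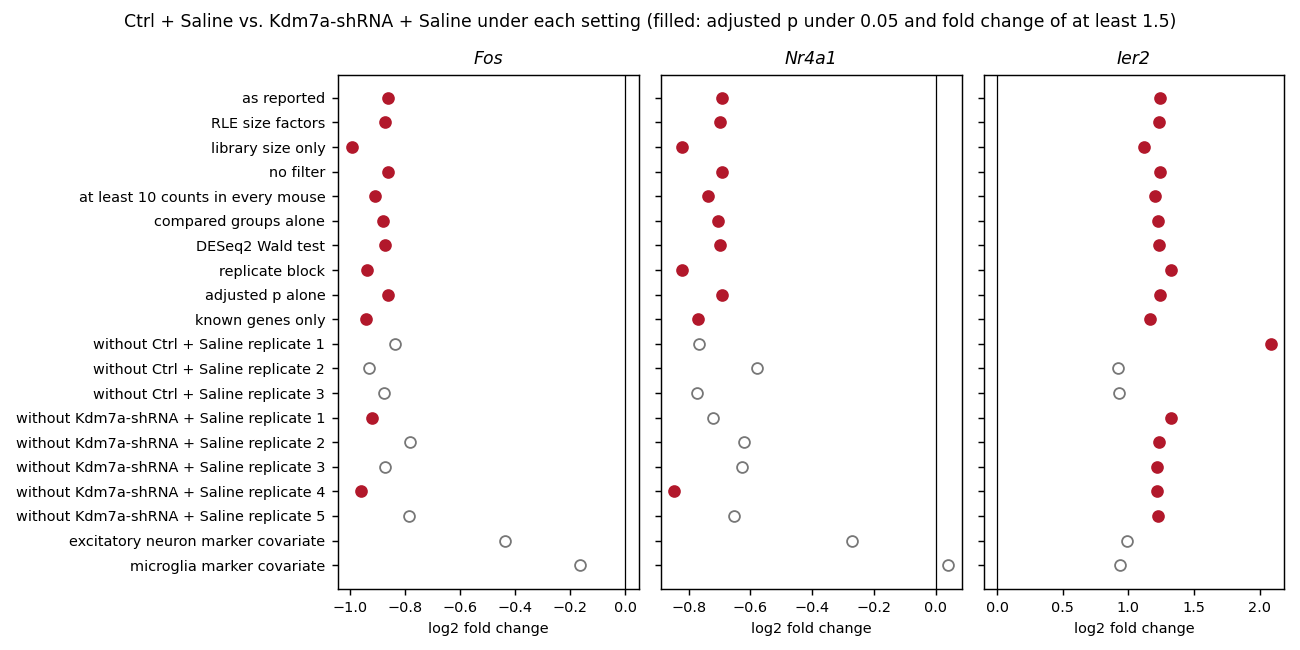
Log2 fold change of Fos, Nr4a1 and Ier2 between Ctrl + Saline and Kdm7a-shRNA + Saline mice (x axes, one scale per gene) under each setting (y axis), filled where the gene passed. Fos and Nr4a1 lie between -0.99 and -0.58 under the planned settings and move to -0.16 and 0.039 with the microglia covariate, and Ier2 lies between 0.92 and 2.08.

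The same question was asked during withdrawal, between the Ctrl + Morphine and the Kdm7a-shRNA + Morphine mice. None of the 10 members passed by edgeR or by DESeq2, and none had an unadjusted p under 0.05. Over all tested genes 7.69% passed by edgeR and 25.5% had an unadjusted p under 0.05. The log2 fold changes of the members ran from -0.24 for Arc to 0.33 for Fos, with a median of -0.055, beside -0.0045 over all tested genes. Fos was at 33.8, 37.3, 21.9 and 24.9 normalized CPM in the Ctrl + Morphine mice and at 25.6, 30.1, 23.5 and 69.9 in the Kdm7a-shRNA + Morphine mice. Only the last of these, replicate 4, lay outside the control range on the high side. Without it the log2 fold change of Fos was -0.16, that of Egr1 -0.43, that of Arc -0.55 and that of Fosb -0.67, and none passed. Nr4a1 was at 91.6, 103, 65.2 and 84.9 in the Ctrl + Morphine mice and at 72.9, 77.6, 56.0 and 136 after knockdown. Its log2 fold change was -0.013 (-0.50 to 0.47), and -0.33 without replicate 4. Ier2 was at 6.29, 5.12, 6.21 and 5.78 in the Ctrl + Morphine mice and at 5.21, 6.83, 5.76 and 3.62 after knockdown, a difference of -0.12 (-0.76 to 0.52). The microglia sum was 391 to 712 in the Ctrl + Morphine mice and 710 to 2867 in the Kdm7a-shRNA + Morphine mice, and 3 of the 6 markers passed as higher. The excitatory neuron sum was 972 to 1516 and 827 to 1445, and none of its 4 markers passed.

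Averaged over both treatments, knockdown changed Kdm7a by -0.71 on the log2 scale (adjusted p = 0.00154), and no member passed by edgeR or by DESeq2. Of all tested genes 17.6% passed by edgeR and 38.8% had an unadjusted p under 0.05, which was reached by 2 of the 10 members. These were Nr4a1, at -0.35 (-0.70 to -0.0047, adjusted p = 0.124), and Ier2, at 0.56 (0.09 to 1.04, adjusted p = 0.0736). Without Ctrl + Saline replicate 1, Ier2 passed at 0.99 (adjusted p = 0.000588) and Junb, at 0.35 with that mouse, passed at 0.72 (adjusted p = 0.0135). Without Kdm7a-shRNA + Morphine replicate 4, Ier2 passed at 0.63 (adjusted p = 0.0419). Fos and Nr4a1 then had adjusted p-values of 0.00990 and 0.00873, and at -0.51 each they stayed under the fold change of 1.5.

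What morphine withdrawal did under the control virus was asked between the Ctrl + Saline and Ctrl + Morphine mice. No member passed, and neither did any of the 18826 genes by edgeR (0%), while DESeq2 called 190 genes and none of the 9 members to which it gave an adjusted p. An unadjusted p under 0.05 was reached by 11.7% of all genes and by 2 members, Fos and Ier2. Fos was lower in each of the 4 Ctrl + Morphine mice than in any Ctrl + Saline mouse, with a log2 fold change of -0.77 (-1.40 to -0.13, unadjusted p = 0.0208, adjusted p = 0.320) in edgeR's test. It was the 1 member of 10 whose groups did not overlap, beside 12.4% of all genes. The summed normalized CPM of 6 striatal neuron markers did not overlap either. It was 68.2 to 90.5 in the Ctrl + Saline mice and 116 to 146 in the Ctrl + Morphine mice. Ppp1r1b had the most reads of the 6 (328 to 1114 per mouse). Drd2 (2 to 26) and Gpr6 (1 to 13, not tested) fell below the 3 reads taken as the smallest detectable value in some mice. The part of this sum in the difference of Fos was not tested. Ier2 differed by 0.86 (0.13 to 1.59, adjusted p = 0.336), and by 1.71 (adjusted p = 0.00522) without Ctrl + Saline replicate 1, when it passed. Junb, at 30.6, 33.0, 18.3 and 26.9 normalized CPM under morphine, differed by 0.64 (-0.13 to 1.40, adjusted p = 0.527), and by 1.37 (adjusted p = 0.0501) without Ctrl + Saline replicate 1. The other 7 members had log2 fold changes between -0.36 for Npas4 and 0.32 for Fosb, and all 7 intervals included 0. This comparison and that of knockdown in saline mice share the 3 Ctrl + Saline mice, so that the values of Fos and Ier2 in them are not independent.

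Under knockdown, saline and morphine mice differed past the thresholds in no member by edgeR or by DESeq2, which gave Npas4 and Ier2 no adjusted p here. By edgeR 0.00531% of all genes, 1 gene, passed, while DESeq2 called 26 genes. An unadjusted p under 0.05 was reached by 7.02% of all genes and by 1 member. This was Jun at -0.50 (adjusted p = 0.712), with 12.6, 28.2, 16.4 and 26.2 normalized CPM in the Kdm7a-shRNA + Morphine mice. The largest positive value was that of Fosb, 0.55 (-0.16 to 1.25, adjusted p = 0.765). Fosb was at 25.4, 13.4, 12.7, 26.0 and 13.2 under saline and at 17.2, 19.7, 16.2 and 53.3 under morphine. Without Kdm7a-shRNA + Morphine replicate 4 its difference was -0.03.

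The interaction term tests whether the knockdown effect differed between treatments. No member passed by edgeR, beside 0.085% of all genes (16 genes), or by DESeq2, which called 227 genes. By edgeR 10.7% of genes had an unadjusted p under 0.05, among them 2 members. The interaction of Fos was 1.19 on the log2 scale (0.34 to 2.05, unadjusted p = 0.00870, adjusted p = 0.261 by edgeR) and that of Ier2 was -1.36 (-2.31 to -0.41, unadjusted p = 0.00755, adjusted p = 0.252 by edgeR). The interaction of Fos was 0.70 without Kdm7a-shRNA + Morphine replicate 4, and that of Ier2 passed at -2.19 (adjusted p = 0.00299) without Ctrl + Saline replicate 1. Averaged over both viruses, morphine changed no member or other gene past the thresholds by edgeR (0%), while DESeq2 called 5 genes and no member. The share with an unadjusted p under 0.05 was 8.36% of all genes and none of the members.

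**Figure D3:**
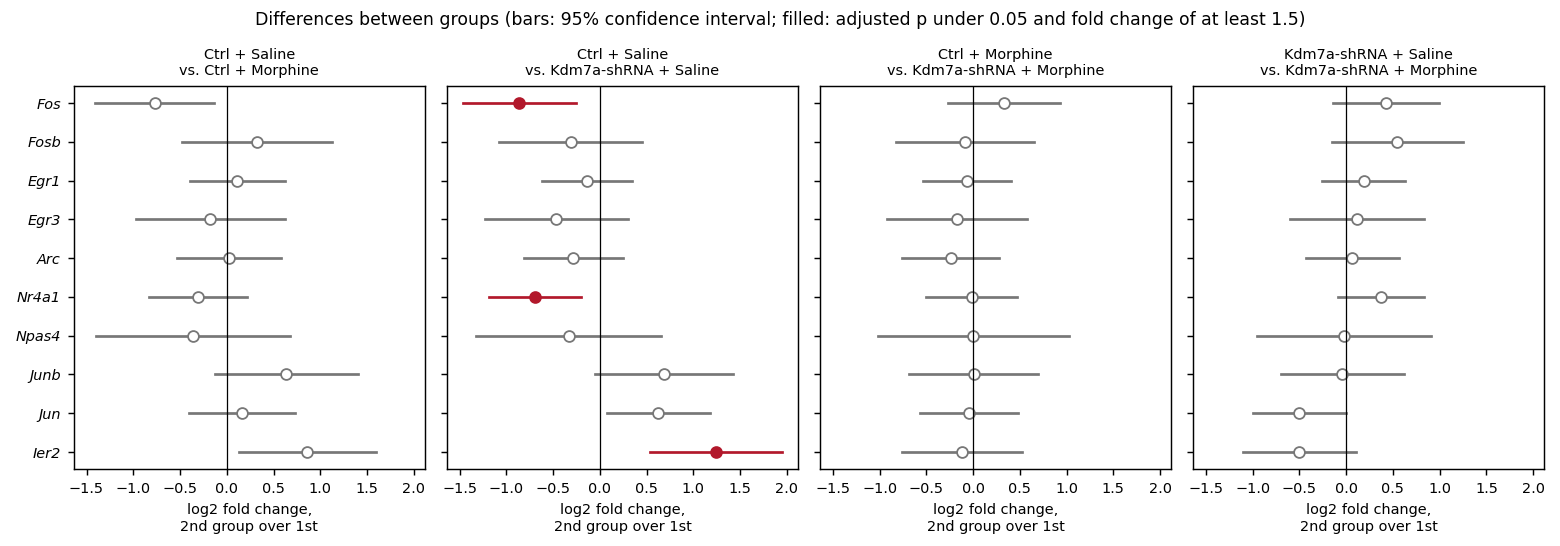
Log2 fold change (x axis) of each member (y axis) in the 4 comparisons of groups, with bars for the 95% confidence interval and filled points for members that passed. Fos, Nr4a1 and Ier2 are filled for knockdown in saline mice, and no point is filled in the other 3.

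The order of the group means differed between members. Fos, Egr3, Nr4a1 and Npas4 had their highest mean in the Ctrl + Saline group. Fosb, Egr1 and Arc had theirs in the Ctrl + Morphine group, with means of 28.1 ± 6.66, 131 ± 11.9 and 71.5 ± 15.3 normalized CPM. Junb, Jun and Ier2 had theirs in the Kdm7a-shRNA + Saline group, with means of 28.1 ± 8.19, 29.6 ± 6.67 and 7.62 ± 0.998. For Arc the 4 means ran from 57.8 ± 16.8 to 71.5 ± 15.3 and for Egr1 from 110 ± 21.6 to 131 ± 11.9, and neither gene passed in any of the 4 comparisons of groups. Egr3 was at 18.8 to 38.8 normalized CPM in the Ctrl + Saline mice, 18.2 to 31.9 in the Ctrl + Morphine mice, 14.6 to 30.4 in the Kdm7a-shRNA + Saline mice and 7.99 to 39.2 in the Kdm7a-shRNA + Morphine mice. Npas4, which is transcribed in neurons on calcium entry, overlapped in all 4 groups, at 4.63 to 5.56, 2.31 to 5.98, 2.49 to 7.76 and 1.12 to 7.78 in the same order.

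Mice of the same group differed more in these genes than in most genes of like level. The SD of log2 normalized CPM within groups was 0.67 for Npas4, 0.59 for Egr3, 0.55 for Fosb and 0.53 for Junb, beside a median of 0.31 over all tested genes. It was 0.44 for Fos and for Ier2, 0.40 for Jun and Arc, 0.37 for Nr4a1 and 0.35 for Egr1. Among tested genes within 0.5 log2 units of the same mean level, the SD of 9 members was at the 90th percentile or above, up to 97.7 for Egr3, and that of Ier2 was at the 79th percentile. Kdm7a, with an SD of 0.26, was at the 29th percentile. From the lowest to the highest mouse, Npas4 differed 6.97-fold, Egr3 4.90-fold and Nr4a1 2.57-fold.

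Much of this spread was shared between members. For each pair, Pearson's r was computed over the 16 mice from log2(normalized CPM + 0.5) after the group means had been removed, with permutation tests (100000 permutations of mice within groups, two-sided) adjusted over the 45 pairs. Of the 45 pairs 20 passed at an adjusted p under 0.05, 19 of them positive. The closest pair was Nr4a1 with Npas4 (r = 0.94, permutation p = 3.0e-05, adjusted p = 0.000675, Spearman's rho = 0.95). Without the 2 mice farthest from the median of Nr4a1, r was 0.89. Egr1 with Nr4a1 had r = 0.92 (permutation p = 0.00012, adjusted p = 0.0018, rho = 0.85) and 0.85 without the 2 mice farthest from the median of Egr1. Arc with Nr4a1 had r = 0.89 (permutation p = 2.0e-05, adjusted p = 0.000675, rho = 0.85) and 0.88 without the 2 mice farthest from the median of Arc. The pairs shared sequencing depth, tissue sampling and cell make-up, and r of single members with all other tested genes spread widely, for Nr4a1 from -0.72 to 0.69 between the 5th and 95th percentiles.

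Fos, Fosb, Egr1, Egr3, Arc, Nr4a1 and Npas4 varied together, in a grouping made after the values had been seen and given here without a test of its own. Of their 21 pairs, 19 passed, and r ran from 0.58 to 0.94 with a median of 0.83. The exceptions were Egr3 with Fos (r = 0.64) and with Arc (r = 0.58). An r at or above 0.58 was reached by 6.69% of the other tested genes with Arc, the lowest share of the 7, and by 10.7% with Nr4a1. Junb, Jun and Ier2 had a median r of 0.05 with the 7, and of those 21 pairs only Egr1 with Ier2 passed (r = -0.46, permutation p = 0.0137, adjusted p = 0.0343, rho = -0.58). The highest r of Jun with any member was 0.26. Junb with Ier2 had r = 0.71 but did not pass (permutation p = 0.0822, adjusted p = 0.158, rho = 0.54). The r of this pair fell to 0.35 without the 2 mice farthest from the median of Junb. Kdm7a-shRNA + Morphine replicate 4 carried part of the pattern. Without it the median r of the 21 pairs was 0.68, with a range of 0.34 to 0.92, all positive. The r of Junb was higher without that mouse, at 0.60 with Fos (0.29 with it), 0.51 with Arc (0.35), 0.54 with Npas4 (0.39) and 0.45 with Nr4a1 (0.27). It stayed below 0.34 with the other members of the 7, at 0.27 with Fosb (0.13), 0.20 with Egr1 (0.047) and 0.046 with Egr3 (-0.018). The place of Junb outside the 7 thus depends in part on that mouse.

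**Figure D4:**
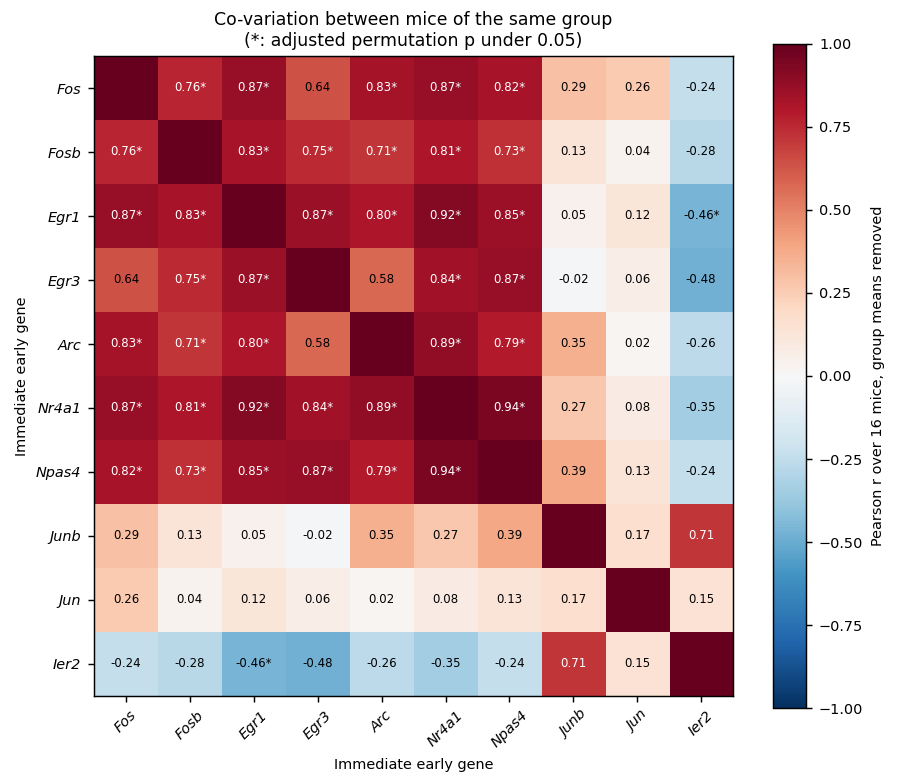
Pearson's r (colour and number) between members (both axes) over 16 mice after removal of group means, with an asterisk where the adjusted permutation p was under 0.05. The 7 genes from Fos to Npas4 form a block of r from 0.58 to 0.94, and the pairs that join Junb, Jun or Ier2 to them have r from -0.48 to 0.39.

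Single mice stood out. Kdm7a-shRNA + Morphine replicate 4 was the highest of the 16 mice for 7 members, with 69.9 normalized CPM of Fos, 53.3 of Fosb, 210 of Egr1, 39.2 of Egr3, 95.3 of Arc, 136 of Nr4a1 and 7.78 of Npas4. Its Junb, Jun and Ier2 values, 23.8, 26.2 and 3.62, were not the highest. Kdm7a-shRNA + Morphine replicate 3 was the lowest of the 16 for Egr1, Egr3 and Npas4, and Kdm7a-shRNA + Saline replicate 2 for Fos, Arc and Nr4a1. The same mice differed in cell type markers. Kdm7a-shRNA + Morphine replicate 4 had a summed 1445 normalized CPM of the excitatory neuron markers, beside 827 to 885 in the other 3 mice of its group. Its microglia sum was 710, beside 1048 to 2867, and its sum of 3 oligodendrocyte markers (Mbp, Mog and Mag) was 7534, beside 11647 to 17393. In each of the 4 groups, the mouse with the highest mean standardized value of the 7 members was also the highest in the excitatory neuron sum and the lowest in the microglia sum. These were replicate 2 of both Ctrl groups and replicate 4 of both Kdm7a-shRNA groups. The other mice did not all follow. Ctrl + Morphine replicate 1, next highest of its group in the 7 members, had the group's lowest excitatory neuron sum (972) and highest microglia sum (712).

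When the excitatory neuron sum was removed by regression within groups, the median r of the 21 pairs was 0.57, and when the microglia sum was removed it was 0.48, with 20 of 21 pairs positive. Both were added once the values were known. The part of cell make-up in the differences between mice was not tested beyond these values.

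**Figure D5:**
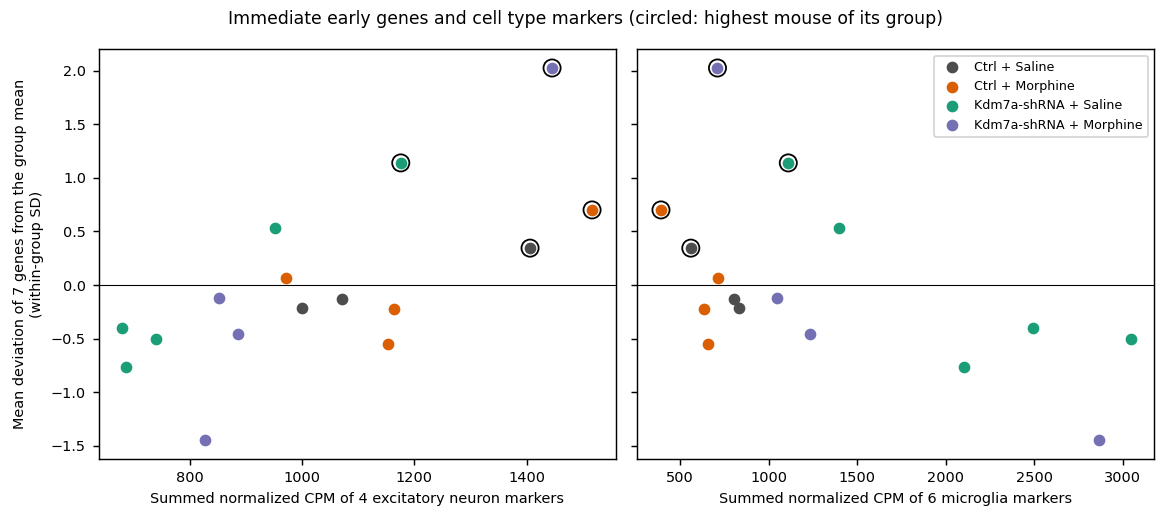
Mean deviation of 7 members (Fos, Fosb, Egr1, Egr3, Arc, Nr4a1 and Npas4) from their group means, in units of the SD within groups (y axis), against the summed normalized CPM of 4 excitatory neuron markers (left) and 6 microglia markers (right), with 1 point per mouse. The circled mice, the highest of each group, are also the highest of their group in the left sum and the lowest in the right sum.

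Among tested genes with a mean of at least 10 normalized CPM that are not members, those whose variation between mice was most like the mean of the 10 standardized members were Pgbd5 (r = 0.93), Atp2b4 (r = 0.91), Syt17 (r = 0.91), Pnmal2 (r = 0.90), 1700001L19Rik (r = 0.89) and Map9 (r = 0.89), of 7810 genes ranked over 16 mice. Atp2b4 encodes a calcium pump of the plasma membrane, Syt17 a synaptotagmin and Map9 a microtubule-associated protein.

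Other immediate early genes gave a mixed picture. Of 24 other genes of this class, 23 were tested, and Fosl1 had too few counts. In saline mice, 2 of the 23 passed as higher after knockdown and 2 as lower, near the 16.7% of all genes that passed there, with a median log2 fold change of 0.29, beside 0.015 over all genes. Atf3, a stress-induced AP-1 partner, rose from 0.984 ± 0.516 to 9.87 ± 2.50 normalized CPM (log2 fold change 3.27, adjusted p = 0.000201). Its lowest Ctrl + Saline value, 0.397, lay at the smallest detectable value of 3 reads, so that the size of this rise is uncertain. Crem, a CREB relative, rose from 30.3 ± 9.39 to 52.4 ± 10.6 (0.79, adjusted p = 0.0127). Egr2, a paralogue of Egr1 and Egr3, fell from 19.1 ± 3.96 to 9.15 ± 0.767 (-1.06, adjusted p = 0.0192). Klf6, named after its value was seen, fell by 0.62 on the log2 scale (adjusted p = 0.0451). Under morphine 2 of the 23 rose with knockdown and none fell, near the 7.69% of all genes that passed there. Atf3 rose by 2.58 (adjusted p = 0.00105) and Zfp36, which promotes decay of cytokine RNA, by 1.13 (adjusted p = 0.0488). Averaged over both treatments 4 rose and 1 fell, near the 17.6% of all genes that passed. None of the 23 passed in the 2 morphine comparisons or in the interaction. Hardly any gene passed there (0% under the control virus, 0.00531% under knockdown and 0.085% in the interaction), so that this says little about the list.

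Of 31 activity-regulated effectors, 29 were tested and 3 passed in saline mice, beside 16.7% of all genes, with a median log2 fold change of -0.24. Plk2, a kinase that acts at synapses after activity, fell from 76.3 ± 8.17 to 44.5 ± 8.87 normalized CPM (-0.78, adjusted p = 0.00285). It also fell with knockdown under morphine, from 70.8 ± 6.40 to 44.8 ± 7.08 (-0.66, adjusted p = 0.0140). Gadd45b, which takes part in DNA demethylation and stress responses, rose by 0.89 in saline mice (adjusted p = 0.0255), and Rasl11b fell by 0.59 (adjusted p = 0.0323). Plk2 was the 1 effector that passed under morphine, where 7.69% of all genes passed. None of the 29 passed in the 2 morphine comparisons or in the interaction, where 0%, 0.00531% and 0.085% of all genes passed.

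Of 28 upstream regulators, 26 were tested. In saline mice 3 passed as higher after knockdown and 1 as lower, near the 16.7% of all genes, with a median log2 fold change of 0.03. Elk1 and Elk3 encode partners of SRF, and Mef2c an activity-dependent factor of neurons. Elk1 rose from 5.37 ± 0.662 to 9.60 ± 1.86 normalized CPM (0.84, adjusted p = 0.00949), and Elk3 from 2.45 ± 0.201 to 7.58 ± 1.92 (1.63, adjusted p = 0.0228). Mef2c fell from 764 ± 82.5 to 416 ± 119 (-0.88, adjusted p = 0.0110). Under morphine Rps6ka2, a kinase of the MAP kinase pathway, rose with knockdown by 0.83 (adjusted p = 0.0281). No other regulator passed there, beside 7.69% of all genes. None of the 26 passed in the 2 morphine comparisons or in the interaction, where 0%, 0.00531% and 0.085% of all genes passed.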

How the data were processed

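Total RNA of the mPFC was prepared with Trizol and sequenced as cDNA-PCR libraries on a Nanopore PromethION instrument. The authors' methods describe the removal of short, low-quality and ribosomal reads, alignment of full-length reads to mm10 by minimap2, consensus building by Pinfish and cDNA Cupcake, and a match quality limit for the reads that were counted. The deposited counts are whole reads per gene and mouse, without normalization. The deposited CPM values are the same counts divided by the authors by the library total of each mouse, and were not used for tests. The submitters' processing notes name minimap2 and edgeR 3.8.6. 

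For the tests, edgeR 4.0.16 was used under R 4.3.3 (filterByExpr, TMM factors, glmQLFit and glmQLFTest, a single fit of 16 mice with 1 coefficient per group). Benjamini-Hochberg adjustment covered 18826 genes, and the thresholds were an adjusted p of 0.05 and a fold change of 1.5. Normalized CPM are CPM after TMM scaling. Correlations were computed in Python 3.11.15 with NumPy 2.4.6. Other settings were DESeq2 1.42.0, a block for the replicate number, scaling by RLE factors or by library size, no filter or a minimum of 10 counts in every mouse, the compared groups or the known genes alone, no fold threshold, each mouse left out and, for correlations, a pseudocount of 2 CPM in place of 0.5. The covariates of marker sums were added later, with the values known. The pipeline was tested on simulated data.

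The members and the gene and marker lists were chosen with earlier results of these data known. The text names all 10 members, Kdm7a, at most 3 genes per other list and comparison by adjusted p, and the 6 genes most like the members. Klf6, the untested Fosl1 and single cell type markers are named in addition. The replicate numbers come from the sample titles, and every group consists of separate mice as far as the labels say, so that p-values measure the spread between these samples. Counts of 25 pairs of mice of the same group differed by more than counting error (chi-square per degree of freedom 8.33 to 51.2). Precision from depth covers counting error only. Of the excitatory neuron and the oligodendrocyte lists, 1 gene each is not reported here and entered no sum or covariate. Promoters of Egr1, Egr3, Arc and Ier2 were not analysed here.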

Additional observations from a re-analysis of the deposited data

Results flagged for a closer look

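In 5 of the 30 sets of values tested (10 members in the 3 groups of 4 or 5 mice), 1 mouse lay farther from the others than Dixon's criterion allows. Chance gives about 1 in 20 for independent sets of normally distributed values. These sets are not independent, since members varied together, and the values were on the linear scale, so that 5 of 30 is not read as an excess. In the Kdm7a-shRNA + Morphine group, replicate 4 was at 69.9 normalized CPM of Fos, beside 23.5 to 30.1 in the other mice, and at 53.3 of Fosb, beside 16.2 to 19.7. In the same group, replicate 2 was at 40.9 of Junb, beside 21.0 to 23.8. In the Kdm7a-shRNA + Saline group, replicate 4 was at 7.76 of Npas4, beside 2.49 to 3.91. In that group, replicate 1 was at 5.86 of Ier2, below the 7.83 to 8.21 of the other mice.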

How the results depend on the processing

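The count of members that passed between Ctrl + Saline and Kdm7a-shRNA + Saline mice was 3 as reported and 3 to 4 under the planned settings that kept every mouse, with Jun added (0.61, adjusted p = 0.0458) when the compared groups were fitted alone. With 1 mouse left out it ran from 0 to 3, from 0 to 1 between Ctrl + Saline and Ctrl + Morphine and for the interaction, and from 0 to 2 for knockdown averaged over treatments. The count of co-varying pairs ran from 11 to 20 with 1 mouse left out, 11 without Kdm7a-shRNA + Morphine replicate 4 and 13 without Kdm7a-shRNA + Morphine replicate 1. With the excitatory neuron covariate 0 members passed in saline mice. With the microglia covariate 2 passed, Egr3 and Npas4, in saline mice (0.86 and 1.20), under morphine (0.74 and 1.13) and averaged (0.80 and 1.17), all higher after knockdown. Without the covariate Egr3 was at -0.47, -0.17 and -0.32 and Npas4 at -0.33, 0.0023 and -0.17 in the same order. With that covariate Nr4a1 in saline mice turned to 0.039. The cause was not tested. Of 600 single values under settings that kept every mouse, 19 that had not passed changed sign, and of 800 with 1 mouse left out, 68. Scaling by library size only shifted the median of all genes by -0.13 between saline groups, -0.11 under morphine and -0.12 averaged, and changed no call of a member. Mice of different groups that share a replicate number had r of -0.12 to 0.43 (21 pairs, median 0.00), with 6 pairs above 0.1. Those with different numbers had r of -0.51 to 0.34 (74 pairs, median -0.0024), with 13 above 0.1. With so few mice per group, these values do not settle whether some numbers pair mice. With the replicate number as a block 3 members passed between the saline groups and 0 elsewhere. DESeq2 gave no adjusted p for Npas4 in the 2 morphine comparisons and their average, nor for Ier2 under knockdown and in the average. Depth limits Npas4 and Ier2 most, with as few as 13 reads in a mouse.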
